A study of Rattus norvegicus with 64 samples.

Results

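The 38 genes described here encode proteins that cells make in order to divide: cyclins and their kinase, spindle motors, kinetochore and checkpoint proteins, and the proteins of cytokinesis. They were taken as a list of symbols, chosen with earlier results of these data known. All 38 of 38 had a row in both count tables, which list 30045 genes each. The lungs came from male Sprague-Dawley rats that breathed either dust from the sand used in hydraulic fracturing or filtered air in whole-body chambers, for 6 hours a day over 4 days. The dust level was 10 mg/m3 in one study and 30 mg/m3 in another. Each study had its own air rats, and the rats were killed 1, 7 or 27 days later. The 10 mg/m3 study held 5, 5 and 4 dust rats and 5, 5 and 4 air rats at days 1, 7 and 27, and the 30 mg/m3 study held 6 rats in each of its 6 groups, 64 libraries in all. Rats killed at day 27 were also older than those killed at day 1, so time after exposure and age cannot be told apart. The sample was a piece of whole lung, in which fewer dividing cells and less RNA per dividing cell cannot be told apart.

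Mitotic genes are switched on late in the cell cycle. Cyclin A and cyclin B with the kinase Cdk1 drive a cell into mitosis. Kinetochore proteins then tie chromosomes to spindle fibres, checkpoint proteins hold the cell until every chromosome is attached, and the anaphase-promoting complex with Cdc20 marks cyclin B for destruction so that the cell can divide. In human and mouse cells most of these genes are held off in resting cells by the DREAM complex, which acts through a promoter element called the CHR, and are turned on through neighbouring CCAAT boxes bound by NF-Y. In the resting adult lung few cells divide at any time.

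The libraries held between 3420235 and 12359518 counts in genes, and the summed counts of the 38 genes were 855 to 5918 per library, so single genes often rested on few counts. After a filter on low counts, 15668 genes were tested at 10 mg/m3 and 15551 at 30 mg/m3, and all 38 mitosis genes were among them both times. The 10 lung marker genes (surfactant, club cell and related genes) had counts in all groups, with sums of 17500 to 31500 CPM (counts scaled to a common library total) over all rats. In the 30 mg/m3 study, libraries of day 27 and day 1 that stood at the same place in the order of the rats' numbers deviated from their group means in the same direction. Their mean correlation across genes was 0.29 in dust and 0.22 in air, and the labels give no reason for it. Group means were subtracted first, which ties the mean for libraries at different places (-0.06 and -0.04) to these values. It is therefore no separate baseline. Of 6 day 1 libraries per arm, 4 in dust and 5 in air correlated best with the day 27 library at their place. The erythroid enzyme gene Alas2 varied the same way in this study, from 69.9 to 7549 CPM in dust rats and from 229.5 to 4269 CPM in air rats over days 1 and 27. Air rats 51 and 53 of day 1 in the 30 mg/m3 study had counts for 21889 and 22077 genes, where no other library had counts for more than 19731. The 8 libraries with over 1500 CPM of Alas2 (2 in each of the day 1 and day 27 groups) were therefore also left out as an added alternative, and the results that moved are given beside those below.

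Promoters of the members were searched for the CHR and the CCAAT box, through which mitotic genes are known to be controlled. Those printed belong to the members called in most comparisons, where an entry existed. RefSeq (build GRCr8) gave 32 promoters for 31 of the 38 genes, each from 250 bases before to 50 bases after the gene's start, and Ccna2, Pbk, Aurkb, Sgol2, Ube2c, Tpx2 and Fam64a had no entry. The 4 printed here, 5′ to 3′ on the gene's own strand, carry the letters TTTGAA or their reverse complement TTCAAA (the CHR) and CCAAT or its reverse complement ATTGG (the CCAAT box) in capitals, and these motifs share no letters in any of the 4. Kif20a lies at chr18:26504172-26504471 on the plus strand, Ccnb1 at chr2:33655176-33655475 on the minus strand, Knstrn at chr3:126254446-126254745 on the plus strand and Cdk1 at chr20:19265043-19265342 on the plus strand.
Kif20a: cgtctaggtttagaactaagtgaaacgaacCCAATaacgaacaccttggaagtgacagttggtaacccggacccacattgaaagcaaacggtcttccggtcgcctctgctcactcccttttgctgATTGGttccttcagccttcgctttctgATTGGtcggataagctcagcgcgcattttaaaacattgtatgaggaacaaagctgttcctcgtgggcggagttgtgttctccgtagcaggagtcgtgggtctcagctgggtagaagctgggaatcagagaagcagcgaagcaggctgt
Ccnb1: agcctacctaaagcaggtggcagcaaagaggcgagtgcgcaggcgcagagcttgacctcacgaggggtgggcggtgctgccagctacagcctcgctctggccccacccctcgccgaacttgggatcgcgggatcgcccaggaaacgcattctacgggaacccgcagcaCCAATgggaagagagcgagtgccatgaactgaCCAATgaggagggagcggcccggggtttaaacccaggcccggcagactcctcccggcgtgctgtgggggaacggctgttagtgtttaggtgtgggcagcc
Knstrn: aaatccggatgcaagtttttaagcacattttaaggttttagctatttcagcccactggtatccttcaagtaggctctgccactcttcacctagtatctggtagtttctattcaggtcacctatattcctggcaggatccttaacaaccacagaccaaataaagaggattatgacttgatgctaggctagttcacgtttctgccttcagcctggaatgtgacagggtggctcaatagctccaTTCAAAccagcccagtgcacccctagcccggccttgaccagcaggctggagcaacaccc
Cdk1: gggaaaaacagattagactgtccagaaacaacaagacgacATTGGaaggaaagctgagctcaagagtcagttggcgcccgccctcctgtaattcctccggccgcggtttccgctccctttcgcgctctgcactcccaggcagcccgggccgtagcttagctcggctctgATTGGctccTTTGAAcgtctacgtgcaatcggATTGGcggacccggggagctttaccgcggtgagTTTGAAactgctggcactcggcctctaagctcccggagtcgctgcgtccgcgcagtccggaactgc
The window of Cdk1 held 2 CHR and 3 CCAAT letter runs. That of Kif20a held 3 CCAAT runs and that of Ccnb1 2, with no TTTGAA or TTCAAA in either. That of Knstrn held 1 CHR on the reverse strand and no CCAAT. Other spellings of the CHR were not searched. Searched on both strands, CHR letters were present in 21 of the 32 member promoters (65.6%) against 18.3% of the 33469 rat promoters in the same table. CCAAT letters were present in 21 of 32 (65.6%) against 37.5% of all promoters, and both motifs in 46.9% against 7.41%. These are letter matches in short windows; no factor's binding was measured in these lungs.

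Mitosis genes were lower 27 days after exposure than 1 day after it in the 30 mg/m3 study, in dust and in air lungs. In that study 34 of the 38 genes fell in dust lungs and 29 of 38 fell in air lungs between day 27 and day 1 by edgeR's quasi-likelihood test with Benjamini-Hochberg adjustment at 0.05. Over all genes tested, 17.3% fell in dust lungs and 7.36% fell in air lungs. No member rose, where 17% of all genes rose in dust lungs and 5.55% in air lungs. The members' median log2 fold change was -0.96 in dust lungs and -0.84 in air lungs, beside a median of -0.01 and 0.00 over all genes. The day 27 rats lay wholly below the day 1 rats for 11 members in dust, where 5.36% of all genes did so, and for 11 members in air, where 3% did. At 10 mg/m3, 7 of the 38 fell in air lungs (0.894% of all genes), and these calls depended on single rats. In dust lungs of that study 0 fell (0.791% of all genes). None of the 38 genes passed the test of dust against air at any day of either study.

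Averaged over the 38 genes, the level on the log2 CPM scale in 30 mg/m3 dust rats ran from 2.60 through a median of 3.20 to 3.71 at day 1, from 2.60 through 2.92 to 3.08 at day 7, and from 1.96 through 2.28 to 2.69 at day 27. In the air rats of that study it ran from 2.61 through 3.03 to 3.15 at day 1, from 2.54 through 2.705 to 2.89 at day 7, and from 1.85 through 2.12 to 2.43 at day 27. All 6 air rats of day 27 therefore lay below every air rat of days 1 and 7. Among dust rats the groups overlapped through 1 rat of day 27, rat 89 (2.69), which lay above the lowest rats of days 1 and 7 (2.60 each). At 10 mg/m3 the average was 2.40 ± 0.105, 2.33 ± 0.135 and 2.23 ± 0.247 in dust lungs, and 2.58 ± 0.35, 2.39 ± 0.262 and 2.08 ± 0.171 in air lungs, at days 1, 7 and 27 (SD, n = 5, 5 and 4).

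**Figure D1:**
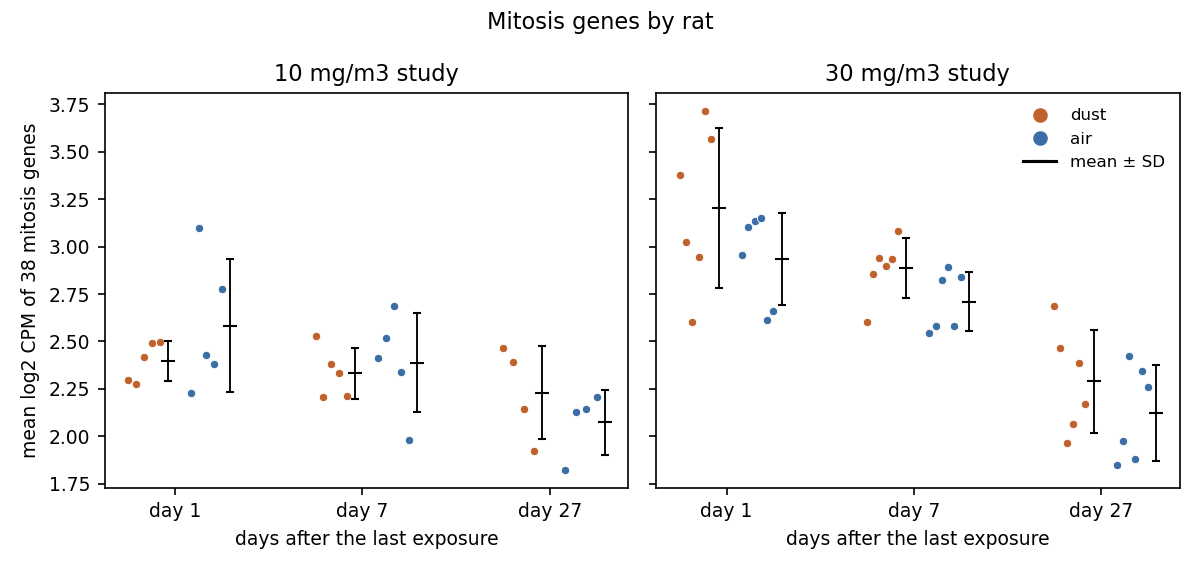
Mean log2 CPM of the 38 mitosis genes in each rat (y axis) by day after exposure (x axis), with dust rats in orange left of air rats in blue and a black mark for the mean ± SD of each group. In the 30 mg/m3 study every air rat of day 27 (at most 2.43) sits below every air rat of day 1 (at least 2.61), whereas in the 10 mg/m3 study dust rats of days 1, 7 and 27 overlap.

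The cyclins and their kinase all fell in both arms of the 30 mg/m3 study: 4 of 4 genes in dust lungs and 4 of 4 in air lungs at day 27 against day 1. Cdk1, the kinase that starts mitosis, had 9.90, 12.9 and 22.9 CPM (lowest, median and highest rat) at day 1, 9.24, 13.5 and 14.2 CPM at day 7 and 4.58, 7.82 and 10.4 CPM at day 27 in dust lungs. In air lungs Cdk1 had 9.04, 13.2 and 15.8 CPM at day 1, 10.02, 11.02 and 11.6 CPM at day 7 and 4.82, 5.64 and 6.91 CPM at day 27. All 6 air rats of day 27 were below all of days 1 and 7, while the dust groups touched at their edges. The log2 fold change of Cdk1 at day 27 against day 1 was -0.93 (SE 0.181, adjusted p = 0.000419) in dust lungs and -1.14 (SE 0.183, adjusted p = 0.000216) in air lungs.

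Ccnb1, the B-type cyclin that partners Cdk1, had 6.11, 6.80 and 12.0 CPM at day 1, 5.69, 6.47 and 9.44 CPM at day 7 and 2.64, 4.05 and 4.59 CPM at day 27 in 30 mg/m3 dust lungs. Its air lungs had 2.94, 5.45 and 7.62 CPM at day 1, 4.15, 5.71 and 7.92 CPM at day 7 and 2.74, 2.88 and 3.85 CPM at day 27. The dust rats of day 27 did not overlap those of days 1 or 7, while in air 1 or more rats of day 1 reached down into the day 27 range. Ccnb1 fell by 0.98 on the log2 scale in dust lungs (SE 0.208, adjusted p = 0.000779) and fell by 0.77 in air lungs (SE 0.212, adjusted p = 0.0159). Ccnb2, another B-type cyclin, fell by 1.14 in dust (adjusted p = 0.00203) and by 1.61 in air (adjusted p = 0.000424). Ccna2, the A-type cyclin of S phase and early mitosis, fell by 0.95 in dust (adjusted p = 0.00157) and by 1.25 in air (adjusted p = 0.000508).

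The chromosome genes Mki67 and Top2a fell in both arms. Mki67 encodes Ki-67, the coat protein of mitotic chromosomes that pathologists stain to count cycling cells. It had 43.7, 73.8 and 109.5 CPM at day 1, 41.3, 53.2 and 66.7 CPM at day 7 and 31.8, 38.8 and 64.9 CPM at day 27 in 30 mg/m3 dust lungs. In the air lungs of that study it had 52, 58.8 and 76.2 CPM at day 1, 43.6, 51.6 and 55.5 CPM at day 7 and 28.8, 36.8 and 48.5 CPM at day 27. Dust rats of day 27 and day 1 overlapped, and air rats of these days did not. Mki67 averaged 42.0 ± 12.5 CPM at day 27 and 74.4 ± 24.9 CPM at day 1 in dust lungs (SD, n = 6 each). Its change there was -0.81 on the log2 scale (SE 0.186, adjusted p = 0.00161). In air lungs it averaged 37.7 ± 9.51 CPM at day 27 and 59.8 ± 8.58 CPM at day 1, and the change was -0.67 (SE 0.185, adjusted p = 0.0175). Top2a, the topoisomerase that untangles sister chromosomes, fell by 0.98 in dust (SE 0.243, adjusted p = 0.00302) and by 0.73 in air (SE 0.242, adjusted p = 0.0444). Its highest day 27 rat (53.2 CPM in dust, 38.6 CPM in air) lay within the day 1 range in each arm.

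**Figure D2:**
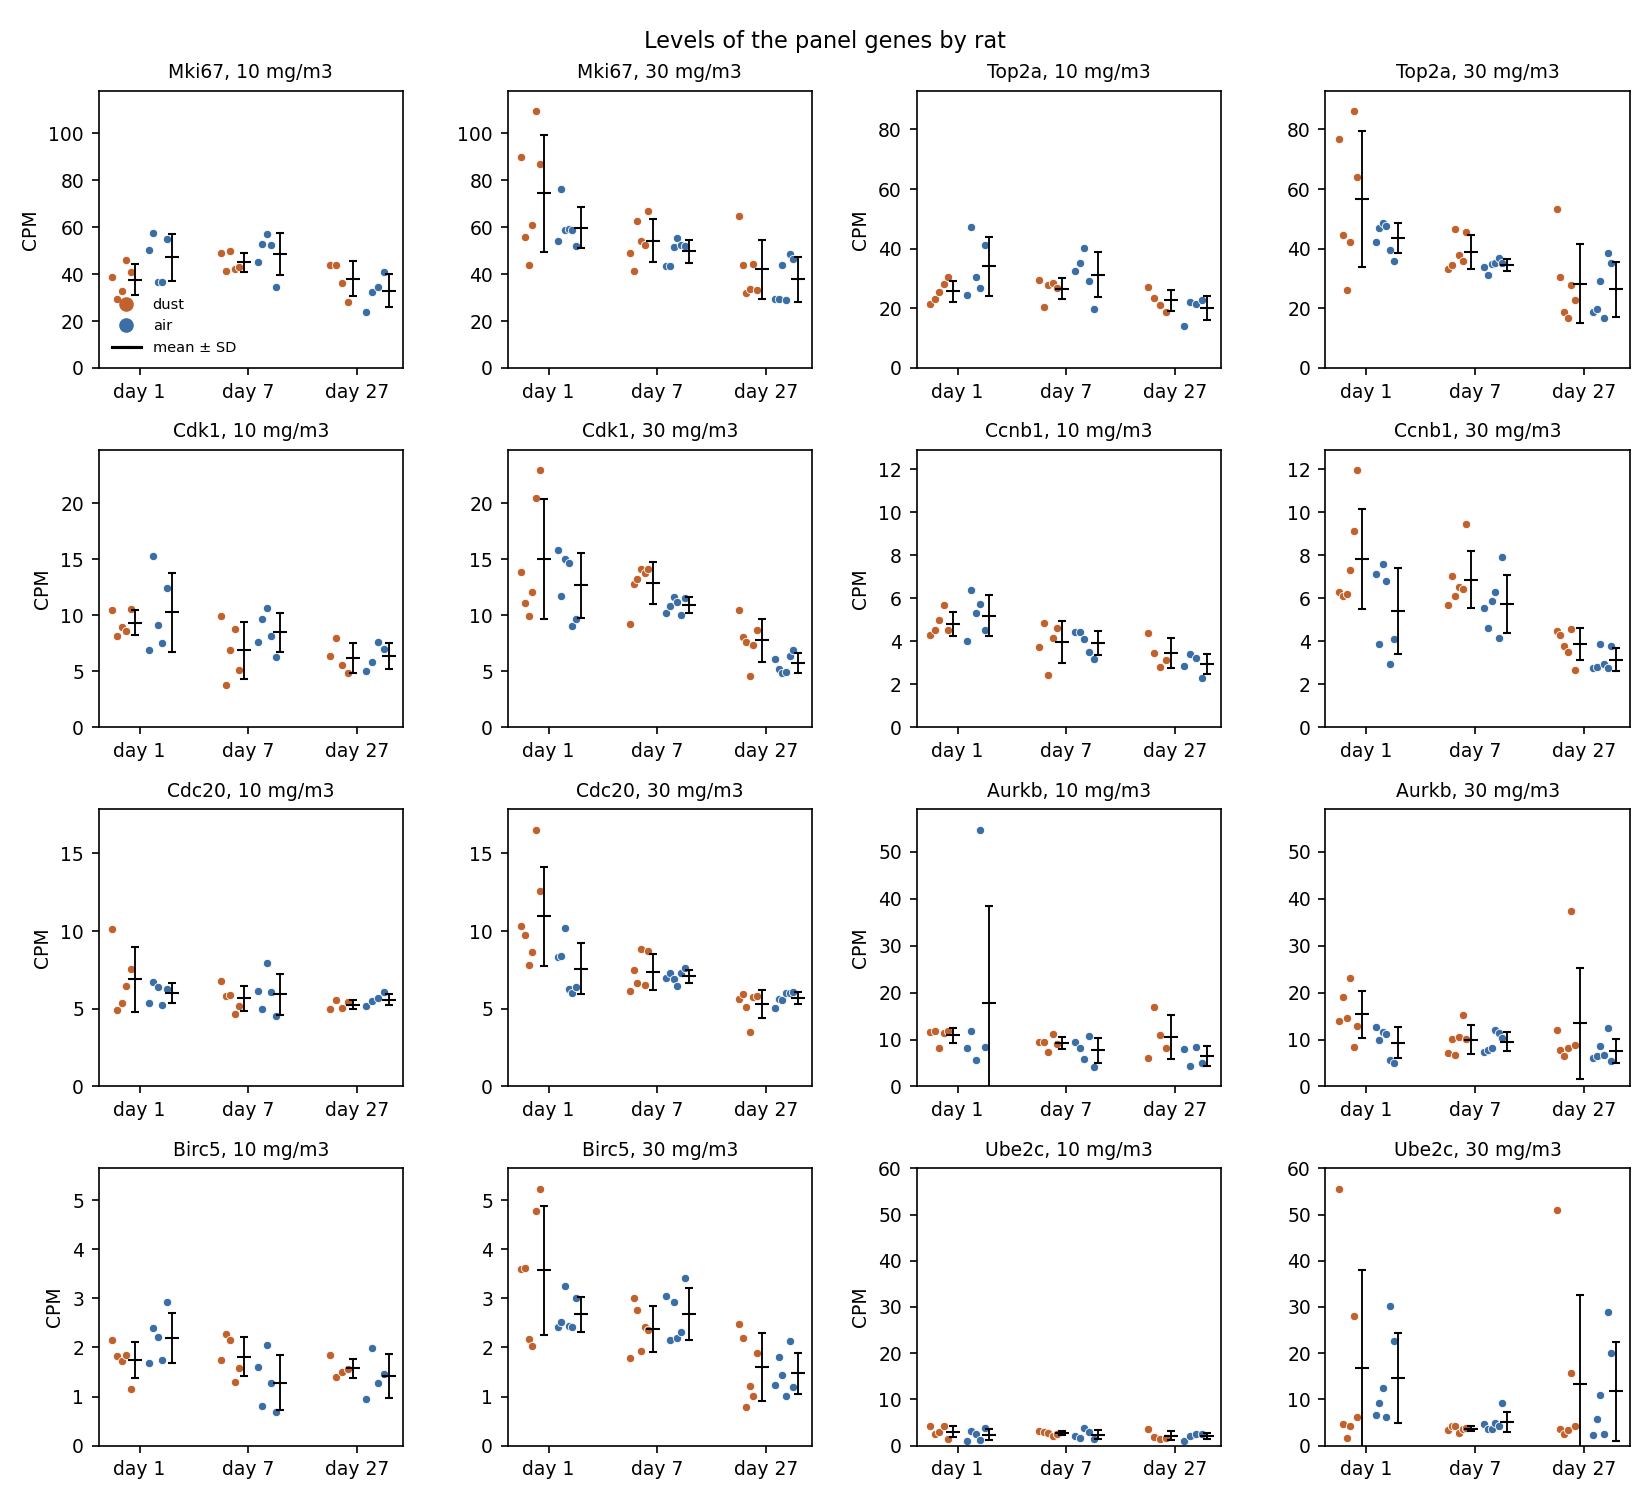
CPM of the named mitosis genes in each rat (y axes, linear) by study and day after exposure (x axes), with dust rats in orange left of air rats in blue and a black mark for the mean ± SD. For Cdk1 in the 30 mg/m3 study the 6 air rats of day 27 lie between 4.82 and 6.91 CPM, below all 6 air rats of day 1 (9.04 to 15.8 CPM), whereas Ube2c shows single rats far above their groups.

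Kinetochore and centromere genes fell together: 7 of 7 in dust lungs, with log2 fold changes between -1.42 and -0.82, and 4 of 7 in air lungs, with values between -1.32 and -0.71 over all 7. Nuf2, a subunit of the NDC80 complex that grips microtubules, was 1.31, 2.05 and 3.02 CPM at day 27 and 3.61, 5.10 and 9.14 CPM at day 1 in dust lungs, with no overlap (log2 fold change -1.42, SE 0.255, adjusted p = 0.000224). Nuf2 was 1.25, 2.21 and 2.47 CPM at day 27 and 3.47, 4.87 and 5.92 CPM at day 1 in air lungs, again with no overlap (-1.25, SE 0.252, adjusted p = 0.002). Its partners Ndc80 and Spc25 passed in dust (adjusted p = 0.0141 and 0.00309) and just missed in air (0.0518 and 0.0556). Sgol2, a shugoshin that protects cohesion at centromeres, was called in 6 of the 20 comparisons, more than any other member. Comparisons of a study share rats, so these calls are not separate observations. Sgol2 fell by 1.05 in dust (adjusted p = 0.000856) and by 1.32 in air (adjusted p = 0.000466). Knstrn, which helps anchor spindle fibres at kinetochores, fell by 1.25 in dust (adjusted p = 0.000201) and by 1.00 in air (adjusted p = 0.00445), with no overlap of the day 27 and day 1 rats in either arm.

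The 4 midzone and cytokinesis genes fell in both arms. Kif20a, a kinesin of the central spindle, had 2.23, 5.64 and 7.36 CPM at day 27 and 8.56, 13.2 and 22.2 CPM at day 1 in dust lungs. In air lungs it had 3.05, 5.03 and 6.14 CPM at day 27 and 7.67, 10.5 and 14.8 CPM at day 1. The day 27 rats lay below the day 1 rats in both arms. Kif20a had a log2 fold change of -1.46 in dust (SE 0.235, adjusted p = 8.27e-05) and of -1.16 in air (SE 0.236, adjusted p = 0.00213). Anln, the anillin scaffold of the contractile ring, fell by 1.17 in dust (adjusted p = 0.000161) and by 1.28 in air (adjusted p = 0.000153). Kif23, a motor of the centralspindlin complex, fell by 0.87 in dust with the smallest adjusted p of the members (2.34e-05) and by 0.61 in air (adjusted p = 0.002). Prc1, which bundles midzone microtubules, fell by 0.91 (adjusted p = 0.0003) and by 0.68 (adjusted p = 0.00856) in dust and in air.

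Of the 7 spindle motor and assembly genes, 6 fell in dust lungs and 6 in air lungs, and the one that passed in neither was Dlgap5 (log2 fold change -0.25 in dust and -0.13 in air). Fam64a, listed today as Pimreg and known in human cells as a mitotic regulator of the metaphase-to-anaphase step, had the largest log2 fold change of the 38 genes in both arms. It had 0.574, 1.06 and 1.83 CPM at day 27 and 2.37, 3.17 and 8.97 CPM at day 1 in dust lungs (log2 fold change -2.10, SE 0.383, adjusted p = 0.00026). In air lungs it had 0.432, 0.754 and 1.93 CPM at day 27 and 1.92, 4.16 and 4.53 CPM at day 1 (-1.85, SE 0.378, adjusted p = 0.0022). The dust groups did not overlap, and the air groups met at their edge near 1.92 CPM. At about 1 CPM it is one of the thinly counted members, and its SE was larger than that of Mki67. Kif11, the kinesin that pushes spindle poles apart, fell by 0.91 in dust (adjusted p = 0.00403) and by 0.83 in air (adjusted p = 0.02).

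All 4 checkpoint genes fell in each arm of the 30 mg/m3 study. Bub1, a kinase of the spindle checkpoint, fell by 0.97 in dust (adjusted p = 0.000462) and by 0.84 in air (adjusted p = 0.00484). Mad2l1, which encodes the Mad2 protein that holds back Cdc20, had the smallest falls of the 4. It fell by 0.50 in dust (adjusted p = 0.0128) and fell by 0.45 in air (adjusted p = 0.0432). Among the mitotic kinases, Melk fell by 1.34 in dust (adjusted p = 0.00165) and by 1.38 in air (adjusted p = 0.00606). Pbk fell by 1.25 in dust (adjusted p = 0.00155) and by 1.06 in air (adjusted p = 0.0155). Aurka, the kinase of spindle poles, passed in dust (-0.53, adjusted p = 0.00812) and not in air (-0.26, adjusted p = 0.232). Plk1, the polo kinase, passed in neither arm (-0.23, adjusted p = 0.444 in dust, and -0.50, adjusted p = 0.117 in air).

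Genes for mitotic exit split. Cdc20, the activator of the anaphase-promoting complex, had 3.51, 5.69 and 5.95 CPM at day 27 and 7.84, 10.01 and 16.5 CPM at day 1 in dust lungs. In air lungs it had 5.03, 5.81 and 6.05 CPM at day 27 and 5.99, 7.35 and 10.2 CPM at day 1. The dust groups were apart and the air groups overlapped at their edge. The log2 fold change of Cdc20 was -1.02 in dust (SE 0.152, adjusted p = 3.93e-05) and -0.41 in air (SE 0.15, adjusted p = 0.0629). The difference between these courses, dust minus air, was -0.61 (SE 0.214) and did not pass over all genes (adjusted p = 0.923). Cdca3, which serves the destruction of the mitosis-blocking kinase Wee1, fell in both arms, by 1.03 in dust (adjusted p = 0.000749) and by 0.93 in air (adjusted p = 0.00558).

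Of the chromosomal passenger complex, Birc5 and Cdca8 fell and their kinase Aurkb did not pass. Birc5, or survivin, fell by 1.11 in dust (SE 0.247, adjusted p = 0.00118) and by 0.87 in air (SE 0.247, adjusted p = 0.019). Cdca8, or borealin, fell by 0.74 in dust (adjusted p = 0.000783) and by 0.54 in air (adjusted p = 0.0202). Aurkb averaged 13.5 ± 11.8 CPM at day 27 and 15.4 ± 5.08 CPM at day 1 in dust lungs, where a single rat of day 27 reached 37.3 CPM. In air it averaged 7.60 ± 2.58 CPM at day 27 and 9.32 ± 3.29 CPM at day 1. Its log2 fold change was -0.20 in dust (adjusted p = 0.672) and -0.29 in air (adjusted p = 0.604).

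**Figure D3:**
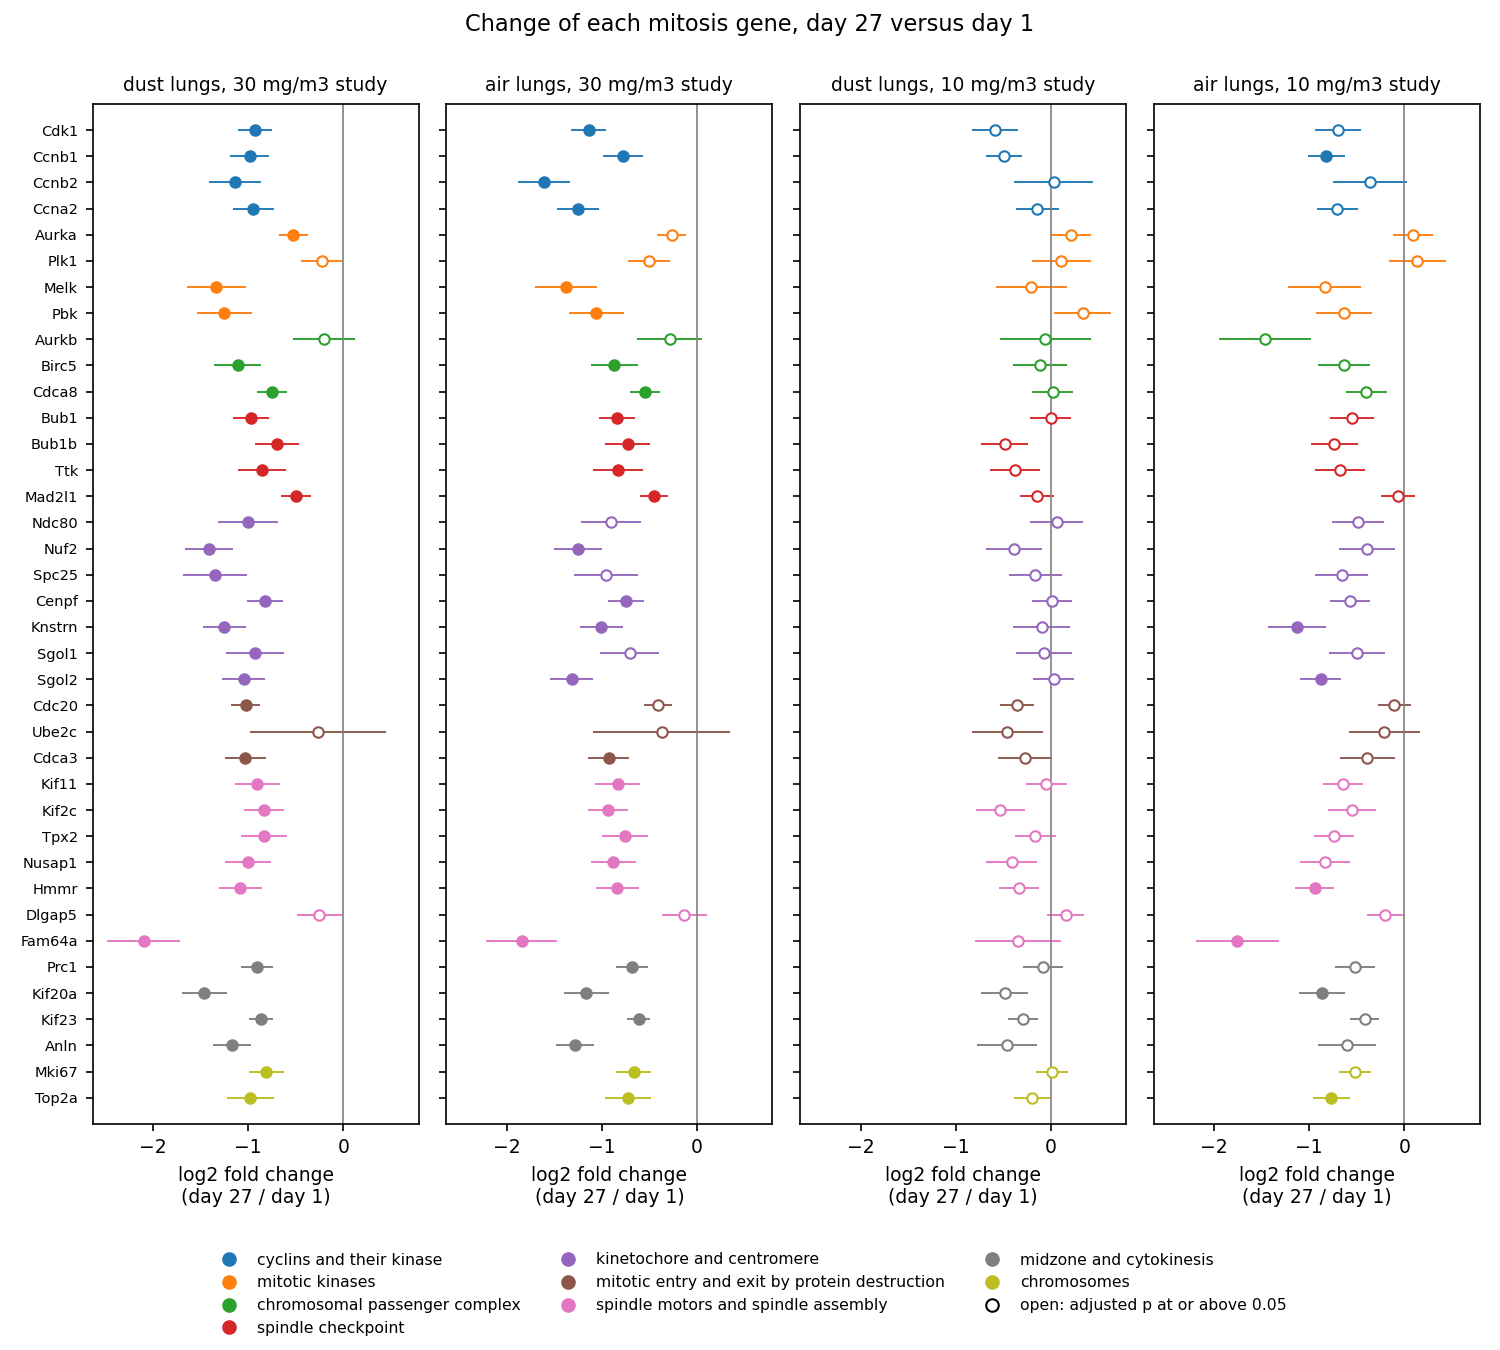
Log2 fold change of each mitosis gene at day 27 against day 1 (x axis, ± SE), 1 gene per row coloured by role, in dust and then air lungs of the 30 mg/m3 and 10 mg/m3 studies, with filled points for an adjusted p under 0.05. In the 30 mg/m3 study 34 points are filled in dust and 29 in air, all left of 0, and in the 10 mg/m3 study 0 are filled in dust and 7 in air.

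Ube2c, the ubiquitin-conjugating enzyme of the anaphase-promoting complex, did not follow the other members and varied by rat instead. Dust rats 89 to 96 of day 27 had 51.04, 3.63, 2.49, 3.36, 15.8 and 4.34 CPM of Ube2c in number order, and dust rats 57 to 62 of day 1 had 55.6, 4.58, 1.75, 4.20, 28.1 and 6.23 CPM. Air rats of day 27 had 2.29, 5.68, 10.96, 2.44, 28.97 and 19.98 CPM, and air rats of day 1 had 6.71, 9.22, 12.4, 6.27, 30.2 and 22.7 CPM. In dust the places of rats 89 and 94 at day 27 and of rats 57 and 61 at day 1 were highest. In air they were those of rats 85 and 87 at day 27 and of rats 54 and 55 at day 1, the same places in number order. Alas2, the first enzyme of haem synthesis in red cell precursors, was high in the same libraries, with 7084 and 1840 CPM in dust rats 89 and 94 of day 27 and 7549 and 2695 CPM in dust rats 57 and 61 of day 1. In air the corresponding rats had 4269 and 3024 CPM of Alas2 at day 27 and 3559 and 2530 CPM at day 1. At day 7 Ube2c lay between 2.78 and 4.33 CPM in dust and between 3.61 and 9.29 CPM in air. Ube2c reached at most 4.31 CPM in dust and 3.88 CPM in air of the 10 mg/m3 study.

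**Figure D4:**
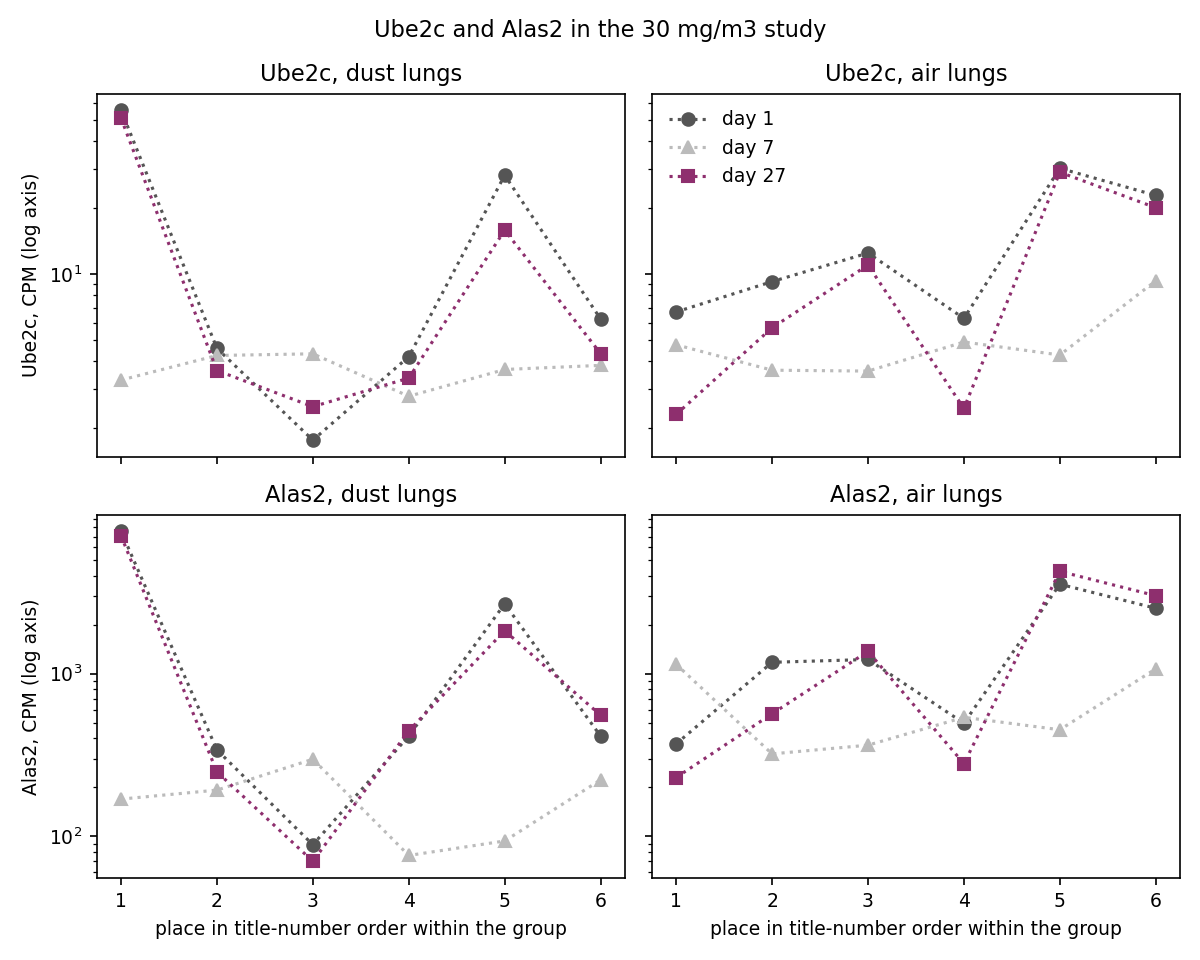
CPM on a log axis of Ube2c (upper row) and of the erythroid gene Alas2 (lower row) against the place of each library in the number order of its group (x axis), for days 1, 7 and 27 of the 30 mg/m3 study, dust on the left and air on the right; dotted lines only join points of a group. The places 1 and 5 in dust and 5 and 6 in air are high for both genes at days 1 and 27.

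The sum of 7 erythroid genes in the 30 mg/m3 study had a lower median at day 27 than at day 1, with overlapping ranges. It was 1610 to 16600 CPM (median 2950) at day 27 and 3680 to 19500 CPM (median 5120) at day 1 in dust lungs. In air lungs it was 2070 to 9150 CPM (median 3840) at day 27 and 4340 to 9580 CPM (median 5950) at day 1. Of these 7 genes 2, the globins Hba1 and Hba2, fell in each arm. Without the 8 libraries over 1500 CPM of Alas2, 29 of the 38 mitosis genes fell in dust lungs (28 of them among the 34) and 33 fell in air lungs (including all 29), with median log2 fold changes of -0.93 in dust and -1.09 in air. In that fit 12.3% of all genes fell in dust and 7.31% in air. Without air rats 51 and 53 of day 1, 15 members fell in air, where 3.37% of all genes fell, and the members' median was -0.70. The dust count was again 34 in that fit. Of 5 fibroblast genes tested Lum and Col3a1 fell and Pdgfra rose in both arms, and their list summed to 2760 to 3740 CPM at day 27 and 3190 to 4190 CPM at day 1 in dust, and to 3090 to 3510 CPM at day 27 and 3210 to 5090 CPM at day 1 in air. The row named Col1a2, also on that list, did not pass the filter and was at 0 in every rat of both day 1 groups. Of 6 endothelial genes Vwf and Kdr rose in both arms, with sums of 3100 to 4030 CPM at day 27 and 2660 to 2940 CPM at day 1 in dust, and 3440 to 3900 CPM at day 27 and 2600 to 3790 CPM at day 1 in air. Of 6 T cell genes Cd2 fell in dust, where the list summed to 63 to 94.1 CPM (median 70.6) at day 27. At day 1 the T cell sum in dust was 56 to 117 CPM (median 71.2). Beside these marker calls on all rats, 17.3% of all genes fell and 17% rose in dust, and 7.36% fell and 5.55% rose in air. The part of these markers in the result was not tested.

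Against day 7, the fall at day 27 was present in fewer members. In dust lungs of the 30 mg/m3 study 17 of 38 genes fell, where 6.54% of all genes fell, and in air lungs 11 of 38 fell, where 1.07% of all genes fell. The cyclins and Cdk1 were called in full in both arms (4 of 4). In dust the 4 midzone genes were called as well, and in air 2 of them, Kif20a and Anln. The largest fall in both arms was that of Fam64a, -1.81 in dust (SE 0.383, adjusted p = 0.00549) and -1.55 in air (SE 0.38, adjusted p = 0.0341). Pbk, a mitotic kinase, was second in dust: it had 0.786, 1.62 and 2.86 CPM at day 27 and 3.46, 3.70 and 5.46 CPM at day 7, with no overlap (log2 fold change -1.28, SE 0.283, adjusted p = 0.00712). Ccnb2 was second in air, with 0.529, 0.921 and 1.69 CPM at day 27 and 1.83, 2.04 and 2.84 CPM at day 7, also with no overlap (-1.16, SE 0.28, adjusted p = 0.0306).

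Mki67 and Top2a did not pass against day 7 in dust (-0.36, adjusted p = 0.184, and -0.44, adjusted p = 0.212). The day 27 rats lay wholly below the day 7 rats for 14 members in dust, where 3.01% of all genes did so, and for 14 members in air, where 1.88% of all genes did. In dust Alas2 and Ahsp, of the 7 erythroid genes, rose at day 27 against day 7, where 4.79% of all genes rose. The sum of the 7 genes had a lower median at day 27 (2950 CPM) than at day 7 (3830 CPM). Alas2 was 7084 and 1840 CPM in dust rats 89 and 94 of day 27. The other dust rats of day 27 had 69.9 to 554.6 CPM, against 76 to 297.6 CPM at day 7. Without the 8 libraries rich in Alas2, 22 members fell in dust (15 of the 17), where 4.71% of all genes fell, and 5 in air (3 of the 11), where 0.282% did. Between day 7 and day 1 no member passed in either arm (0 of 38 in dust, where 0 of all genes passed, and 0 of 38 in air, where 0.116% did); 14 members in dust (11.9% of all genes) and 3 in air (12%) had an unadjusted p under 0.05, and neither DESeq2 nor limma voom called any. The medians at day 7 against day 1 were -0.38 in dust and -0.23 in air. They were -0.18 in dust and -0.37 in air without the 8 libraries rich in Alas2, so the order of the arms depended on those libraries. Without air rats 51 and 53 they were -0.375 in dust and -0.121 in air, in the same order as with all rats.

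In the 10 mg/m3 study members passed in air lungs, in calls that depended on single rats, and none passed in dust lungs. In dust lungs 0 of 38 genes passed at day 27 against day 1 by edgeR, DESeq2 or limma voom, where 0.791% of all genes fell, and the median log2 fold change was -0.15. An unadjusted p under 0.05 was found for 3 members there, beside 18.5% of all genes. In air lungs 7 of 38 fell, where 0.894% of all genes fell, with a median of -0.62. All 7 (Fam64a, Knstrn, Hmmr, Sgol2, Kif20a, Ccnb1 and Top2a) were also called in the air lungs of the 30 mg/m3 study. There 29 of the 38 members were called, so most of any 7 members would be expected to be shared. The overlap is 100% of the shorter and 24.1% of the longer list. Across the 38 genes the day 27 against day 1 values of the 2 studies correlated with r = 0.50 in air and 0.25 in dust, given as a description since genes share libraries.

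Fam64a had 0.421, 0.897, 0.926 and 1.78 CPM in the 4 air rats of day 27 of the 10 mg/m3 study, and 1.84, 7.64, 2.58, 2.45 and 2.42 CPM in the 5 of day 1, with no overlap (log2 fold change -1.76, SE 0.436, adjusted p = 0.0283). Hmmr, which binds spindle microtubules, had 2.74, 3.09, 3.12 and 2.61 CPM at day 27 and 3.23, 8.16, 5.29, 5.49 and 5.46 CPM at day 1 in air (-0.94, SE 0.21, adjusted p = 0.0178). Rat 18, the second of day 1, was highest of the 9 rats for both genes. Ccnb1 had 2.84, 3.39, 3.24 and 2.30 CPM at day 27 and 3.99, 6.38, 5.29, 5.72 and 4.55 CPM at day 1 in air (-0.82, SE 0.194, adjusted p = 0.0236). In dust it had 4.38, 3.47, 2.79 and 3.14 CPM at day 27 and 4.31, 4.52, 4.97, 5.71 and 4.52 CPM at day 1. The air rats were apart, and the dust rats overlapped through 1 rat of day 27. Top2a had 14.2, 22.1, 21.3 and 22.9 CPM at day 27 and 24.6, 47.4, 30.4, 26.9 and 41.2 CPM at day 1 in air (-0.77, SE 0.191, adjusted p = 0.0297). In dust it had 27.2, 23.6, 21.1 and 18.7 CPM at day 27 and 21.5, 23.1, 25.4, 28.04 and 30.5 CPM at day 1. The air rats were apart here too, and the dust rats of both days lay among each other.

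Groups did not overlap, with day 27 lower, for 10 members in air lungs of this study (2.2% of all genes) and for 1 member in dust lungs (3.67% of all genes). That member was Cdk1, with 6.34, 7.98, 5.59 and 4.83 CPM at day 27 and 10.5, 8.17, 8.93, 8.61 and 10.5 CPM at day 1 in dust, and its log2 fold change of -0.58 (SE 0.243, adjusted p = 0.192) did not pass. The 7 calls in air depended on single rats: none was left without day 1 rat 18 or without day 27 rat 1 or 5, with a median of -0.40 in place of -0.62 without rat 18. A fit to the compared groups alone also called 0. Against day 7, Sgol2 was the 1 of 38 that fell in air (2.62% of all genes), with 2.52, 3.89, 4.17 and 5.54 CPM at day 27 and 7.99, 9.26, 9.70, 7.65 and 6.01 CPM at day 7 (-1.01, SE 0.218, adjusted p = 0.024). For 3 members (Pbk, Sgol2 and Hmmr) these rats did not overlap (3.11% of all genes). In dust 0 of 38 fell against day 7 (0.00638% of all genes), and 0 had an unadjusted p under 0.05 (4.49% of all genes). At day 7 against day 1 none passed in dust (11.8% of all genes) or in air (5.9%), with an unadjusted p under 0.05 in 1 member in dust (27% of all genes) and 9 in air (22.9%). Limma voom called 1 member in air.

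Whether the course differed between dust and air was tested directly, as the day 27 against day 1 change in dust minus that in air. No member passed in either study (0 of 38 each by edgeR, DESeq2 and limma voom, and 0 of all genes by edgeR). At 10 mg/m3, 34 of 38 differences were above 0 (48.6% of all genes) with a median of 0.42, and 8 had an unadjusted p under 0.05, where 13.2% of all genes did. Nearest to the threshold was Sgol2, whose difference was 0.91 (SE 0.304, adjusted p = 0.276). In the 30 mg/m3 study 11 of 38 were above 0 (50.6% of all genes), the median was -0.12, and 1 member, Cdc20, had an unadjusted p under 0.05, where 4.62% of all genes did. The median of this difference was 0.16 without the 8 libraries rich in Alas2 and -0.21 without air rats 51 and 53, so its sign depended on which libraries entered. That the 10 mg/m3 air course passed in 7 genes and the dust course in none therefore does not by itself show a difference between the arms.

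Dust and air lungs were also compared at each day. No member passed at days 1, 7 or 27 of either study by edgeR, DESeq2 or limma voom. At 10 mg/m3, 0.128% of all genes passed at day 1 and none at days 7 and 27, and 5, 1 and 1 members had an unadjusted p under 0.05, beside 18.9%, 3.96% and 2.36% of all genes. At 30 mg/m3, none of all genes passed at days 1 and 27 and 0.0643% passed at day 7, and 10, 2 and 6 members had an unadjusted p under 0.05, beside 15%, 4.99% and 7.34% of all genes. Without air rats 51 and 53, 5.56% of all genes passed in the 30 mg/m3 comparison of day 1. Of the 38 members 1 did, Cenpf. DESeq2 on all rats called 40 genes there and no member.

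The direction of the members' differences ran one way at 30 mg/m3: 38, 32 and 35 of the 38 log2 fold changes of dust against air were above 0 at days 1, 7 and 27, where 55.1%, 49.5% and 50.7% of all genes were. The medians were 0.32, 0.19 and 0.19, and those of all genes at most 0.02. The genes of this list move together between libraries, so such counts do not stand for 38 separate observations. Without the 8 libraries over 1500 CPM of Alas2 the median at day 1 was -0.002, and those at days 7 and 27 were 0.19 and 0.15. With 1 rat left out at a time, the 30 mg/m3 medians ran from 0.18 to 0.43, from 0.12 to 0.24 and from 0.05 to 0.29. The medians were -0.27, -0.11 and 0.16 at days 1, 7 and 27 of the 10 mg/m3 study, with 6, 14 and 30 of 38 above 0 (48.4%, 48% and 46.9% of all genes). With 1 rat left out they ran from -0.33 to -0.08, from -0.15 to 0.02 and from 0.08 to 0.26, so the sign at day 7 rested on single rats.

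**Figure D5:**
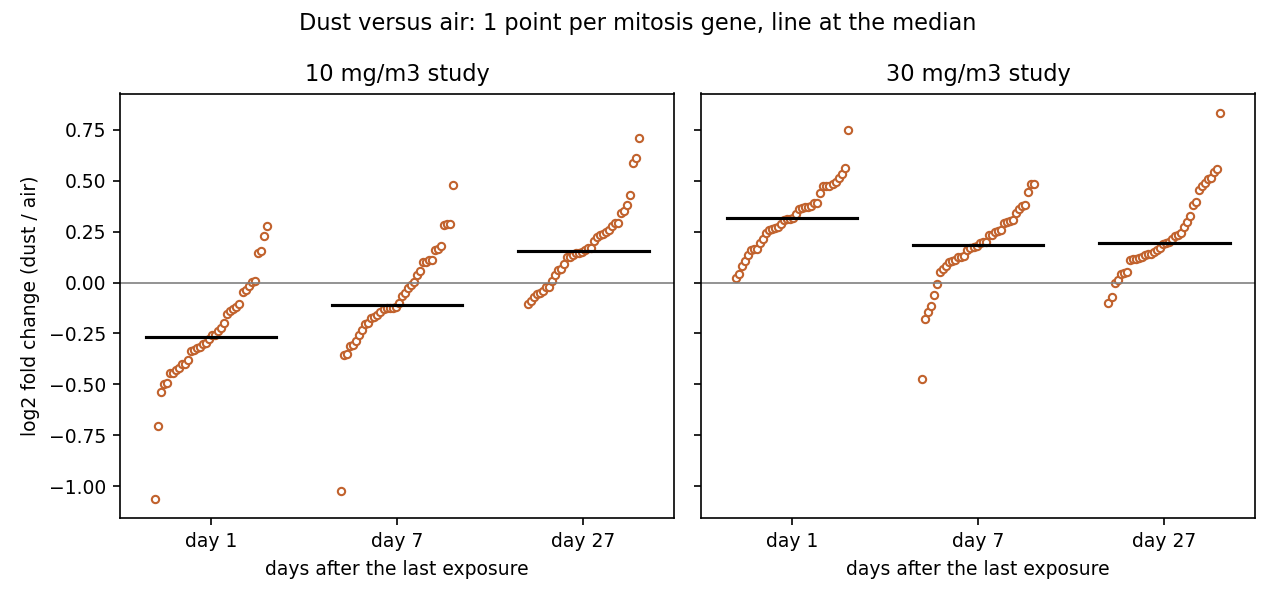
Log2 fold change of dust against air for each of the 38 mitosis genes (y axis, 1 point per gene, line at the median) at days 1, 7 and 27 (x axis), in the 10 mg/m3 and 30 mg/m3 studies. At 30 mg/m3 the medians are 0.32, 0.19 and 0.19, at 10 mg/m3 they are -0.27, -0.11 and 0.16, and no point passed the test.

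At 30 mg/m3 Cdc20 came nearest to the threshold, with 7.84, 10.01 and 16.5 CPM in dust and 5.99, 7.35 and 10.2 CPM in air at day 1 (log2 fold change 0.51, SE 0.147, adjusted p = 0.182). The groups overlapped. Aurkb had the largest differences at 30 mg/m3, 0.75 at day 1 (adjusted p = 0.3) and 0.83 at day 27 (adjusted p = 0.563), with much overlap of the rats. Mki67 differed by 0.31, 0.12 and 0.17 at days 1, 7 and 27 (SE 0.183, 0.184 and 0.187), each less than 2 SE from 0. Fam64a had the largest difference at day 1 of the 10 mg/m3 study, with 1.85, 1.18, 1.83, 1.84 and 1.58 CPM in dust and 1.84, 7.64, 2.58, 2.45 and 2.42 CPM in air (-1.06, SE 0.39, adjusted p = 0.148), of which rat 18 holds the highest value. Sgol2 was 7.38, 7.06, 5.59 and 4.59 CPM in dust and 2.52, 3.89, 4.17 and 5.54 CPM in air at day 27 (0.61, SE 0.23, adjusted p = 1), with 1 air rat inside the dust range.

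Other mitosis genes and S phase genes also fell between day 27 and day 1 in the 30 mg/m3 study. Over all genes tested there, 17.3% fell and 17% rose in dust lungs, and 7.36% fell and 5.55% rose in air lungs. Of 59 further mitosis genes tested, 34 fell in dust lungs and 18 in air lungs and none rose. Their medians were -0.52 in dust and -0.46 in air. Kif22, a kinesin that binds chromosome arms, fell by 1.30 in dust (adjusted p = 7.37e-05) and by 1.12 in air (adjusted p = 0.000857). Of 38 S phase genes 17 fell and 1 rose in dust, and 11 fell in air, with medians of -0.38 and -0.29. Ccne2, a cyclin of S phase entry, fell by 0.92 in dust (adjusted p = 0.00531) and by 1.12 in air (adjusted p = 0.00475). Of 21 MuvB and E2F regulators, which control the timing of these genes, 5 fell and 1 rose in dust and 3 fell and 1 rose in air. Their medians were -0.13 in dust and -0.08 in air, beside the 17.3% of all genes that fell in dust and the 7.36% in air. E2f7, a repressor, fell by 1.25 in dust (adjusted p = 0.000738). Of 6 CDK inhibitor genes 1 rose and 2 fell in dust, and 1 rose and 1 fell in air. Cdkn2c fell by 0.44 in dust (adjusted p = 0.0255) and fell by 0.64 in air (adjusted p = 0.00694). Cdkn3, a phosphatase that acts on CDKs and is itself highest in mitosis, fell by 1.34 in dust (adjusted p = 0.000885) and had a log2 fold change of -0.78 in air (adjusted p = 0.0619). Cdkn1b, which encodes p27 and holds cells out of the cycle, rose in both arms. It averaged 102.4 CPM at day 27 and 74.1 CPM at day 1 in dust (0.47, SE 0.101, adjusted p = 0.000913). In air it averaged 102.9 CPM at day 27 and 80.7 CPM at day 1 (0.35, SE 0.0997, adjusted p = 0.0199). Among the air lungs of the 10 mg/m3 study, 4 of 55 further mitosis genes and 1 of 38 S phase genes fell (0.894% of all genes). Their medians were -0.36 and -0.20. In the dust lungs none of either fell, where 0.791% of all genes did.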

How the data were processed

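Total RNA from a piece of lung of each rat was depleted of ribosomal RNA and sequenced from stranded libraries, per the labels' protocols. The authors deposited raw counts of reads per gene symbol, 1 table per dose study. Per the submitters' processing notes, Trimmomatic 0.35, HISAT2 2.1.0, SAMtools 1.8, HTSeq 0.6.1 and the build Rnor_6.0 were used; the annotation and strand setting of counting were not given in the sources used here. Counts of overlapping genes may depend on these settings.

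The counts were analysed with edgeR 4.0.16 in R 4.3.3, separately for each study, with all 6 groups in 1 fit: filterByExpr (minimum count 10, minimum total 15), TMM factors and the robust quasi-likelihood test, with Benjamini-Hochberg adjustment over all genes tested and a threshold of 0.05. CPM values use TMM-scaled library sizes, and log2 CPM a prior count of 2. DESeq2 1.42.0 and limma 3.58.1 (voom) were alternatives, as were other scalings, no filter, the compared groups alone, and leaving out each rat; library totals alone as scaling, and leaving out the 8 libraries over 1500 CPM of Alas2, were added after seeing the data. In simulated air courses with known changes, 90.9% (10 mg/m3 study) and 93.9% (30 mg/m3 study) of the tested 2-fold genes and 100% of 4-fold genes were called. Every gene was drawn there with the same spread, and libraries were independent. The changed genes came from all genes past the filter, so these shares do not give the power for the thinly counted members. No 2 libraries of a group agreed within sampling noise (lowest chi-square per degree of freedom 2.14). P-values measure the spread between rats that the labels list as separate samples.

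The members, the gene lists and the alternatives were chosen with earlier results of these data known. Named genes are a panel of cell division genes (Mki67, Top2a, Cdk1, Ccnb1, Cdc20, Aurkb, Birc5 and Ube2c), the 3 largest rises and falls among members called in each comparison, up to 3 called genes of each other list with the largest change per comparison, and, chosen after their values were seen, examples of each role and values beside these. Promoters came from RefSeq's GRCr8 table, were matched by symbol, and are printed for those with an entry among the 6 members called in most comparisons.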

Additional observations from a re-analysis of the deposited data

Results flagged for a closer look

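In 9 of 108 groups of 4 to 6 rats examined for the named genes, 1 rat stood apart from the rest by Dixon's test at the 95% level, which chance alone does in about 1 in 20 groups. Of these, 4 concern genes that varied between single rats. Ube2c was 51.04 CPM in dust rat 89 at day 27 of the 30 mg/m3 study, where the next rat had 15.8 CPM, and 9.29 CPM in air rat 71 at day 7, where the next had 4.90 CPM. Aurkb was 37.3 CPM in dust rat 94 at day 27 of the 30 mg/m3 study (next 12.0 CPM), and 54.8 CPM in air rat 20 at day 1 of the 10 mg/m3 study (next 11.7 CPM).

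The other 5 were smaller. Aurkb was 8.12 CPM in dust rat 30 at day 1 of the 10 mg/m3 study, below the nearest rat at 11.4 CPM. In the 30 mg/m3 study Mki67 was 76.2 CPM in air rat 51 at day 1 (nearest 59.2 CPM), Ccnb1 was 9.44 CPM in dust rat 79 at day 7 (nearest 7.05 CPM), Cdk1 was 9.24 CPM in dust rat 73 at day 7 (nearest 12.8 CPM), and Cdc20 was 3.51 CPM in dust rat 92 at day 27 (nearest 5.11 CPM).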

How the results depend on the processing

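No paired analysis was possible because the numbers in the titles belong to 1 rat each and no 2 groups share a number; a place in number order is not a label and was not used as a block. In the 30 mg/m3 study the count of members that fell at day 27 against day 1 lay between 29 and 34 in dust and between 15 and 33 in air over the other settings, with 15 when air rats 51 and 53 were left out. Leaving out each rat gave 31 to 35 in dust and 20 to 31 in air. Against day 7 the dust count was 15 to 22 over settings and 11 to 21 with 1 rat left out (11 without dust rat 79 of day 7). The air count of 11 against day 7 became 7 with no filter, 7 by limma voom, 17 with the compared groups alone and 5 without the libraries rich in Alas2, and 3 to 12 with 1 rat left out (3 without rat 68, 69, 71, 81 or 82, 5 without rat 84, 85 or 87, and 7 without rat 66). With rats 51 and 53 left out, 1 member, Cenpf, passed in dust against air at day 1, where 5.56% of all genes did. At 10 mg/m3 the 7 air calls at day 27 against day 1 became 0 with the compared groups alone and 0 to 10 with 1 rat left out (also low, 1 and 2, without rats 19 and 3). The single air call against day 7 became 3 by limma voom, 3 by DESeq2, 3 with library totals alone and 0 with the compared groups alone, and 0 to 4 with 1 rat left out. At day 7 against day 1, limma voom called 1 in air and the compared groups alone called 1 in dust, with 0 to 3 in air and 0 to 1 in dust with 1 rat left out. The difference of courses at 10 mg/m3 gave 0 to 1 with 1 rat left out, the 1 being Sgol2 without air rat 6 of day 27. Changes of sign among the named genes were few (13 of 884 values with 1 rat left out and 8 of 584 under other settings), all in values that had not passed. Without the libraries rich in Alas2, dust against air at 30 mg/m3 and day 1 was -0.004 for Mki67, -0.074 for Top2a, -0.035 for Cdk1 and -1.07 for Ube2c, and day 27 against day 7 in dust was -0.33 for Aurkb and -0.10 for Ube2c. Ube2c in dust against air at day 1 was also -0.74 by limma voom and -0.12 without rats 51 and 53. With 1 rat left out, log2 fold changes ran from -0.87 to 0.51 for Ube2c in dust against air at day 1, from -1.5 to 0.75 for Ube2c and from -0.17 to 0.60 for Aurkb in dust lungs at days 27 against 1 and 27 against 7, all in the 30 mg/m3 study. At 10 mg/m3 they ran from -0.26 to 0.035 for Cdk1 and -0.92 to 0.38 for Aurkb in dust against air at day 1, from -0.18 to 0.047 for Cdc20, -0.072 to 0.39 for Birc5 and -0.32 to 0.10 for Ube2c in air at day 27 against day 7, and from -0.38 to 0.027 for Ube2c in air at day 27 against day 1. The cause was not tested. Against TMM, library totals alone moved the median of all genes by at most 0.079 on the log2 scale in any comparison, and RLE factors by at most 0.014. Members near 1 CPM rest on few counts, and with 4 to 6 rats per group a difference of 0.51 with an SE of 0.147 (Cdc20, dust against air at day 1) did not pass over all genes.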
